A study of Mus musculus with 7 samples.

Results

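The 10 genes described here, Acta2, Tagln, Myh11, Cnn1, Actg2, Des, Mylk, Smtn, Synpo2 and Lmod1, encode parts of the contractile apparatus of smooth muscle. They were chosen by name, as the rows of the count table whose Ensembl identifiers carry these symbols, and all 10 were found among its 27138 features. All 10 passed the filter on low counts, which left 16910 features for testing. Polyadenylated RNA of the whole pancreas was sequenced from E15.5 mouse embryos, with each library from a separate embryo. The 3 cKO libraries came from embryos with floxed alleles of mLINC00673 (2610035D17Rik), a long non-coding RNA gene, and the Pdx1Cre transgene. The 4 WT libraries came from embryos with the same floxed alleles and no Cre, so the comparison has no control for Cre itself. Pdx1-Cre is active in the pancreatic epithelium, and smooth muscle lies outside it. Bulk RNA does not show which cells carried the contractile RNAs, and Mylk is also made in non-muscle cells.

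In smooth muscle, bundles of smooth muscle actin slide past filaments of smooth muscle myosin. Contraction begins when calcium and calmodulin switch on myosin light chain kinase, and proteins that bind the actin filament tune it. The same apparatus serves the walls of blood vessels and of hollow organs such as the gut. Of the actins, Acta2 is the main form of vascular muscle and Actg2 that of visceral muscle. In the embryonic pancreas, such transcripts can come from arteries and other vessels, from mesenchymal cells, or from gut wall and neighbouring tissue taken at dissection.

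The smooth muscle genes were expressed at similar levels in cKO and WT pancreas, within wide errors for most of them. None passed the threshold of an adjusted p under 0.05, and the values of the groups overlapped for all 10. For 9 of the 10 genes, all but Des, the SD between embryos of a group was larger than the fitted difference between the groups, both on the log2 scale. Most of the genes were lowest in a single WT embryo, replicate 2. The summed level of the 10 genes was 370.9, 270.6 and 324.6 CPM (read counts scaled to library size, with TMM factors) in cKO replicates 1 to 3, against 298.6, 206.5, 304.5 and 325.9 CPM in WT replicates 1 to 4. The groups overlapped in this sum, with cKO replicate 1 highest and WT replicate 2 lowest of the 7. In bulk RNA, fewer smooth muscle cells and less of these RNAs per cell cannot be told apart.

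Library totals ran from 14883918 to 17767373 counts. The targeted gene 2610035D17Rik had 34, 57 and 41 counts in cKO and 168, 147, 137 and 125 counts in WT, so it was lower in every cKO library. Xist, which is transcribed from the inactive X chromosome of females, had 20326 counts in WT replicate 2 and 1 to 8 in the other 6 libraries. It moves with the low smooth muscle values of that embryo, and the part of embryo sex in them was not tested. The column of WT replicate 4 has another header prefix than the other columns, and the labels do not say what it stands for. That prefix holds WT samples only, so no comparison could be made within it.

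The promoters of 4 of the genes are shown first, because the known regulation of the family lies there. Serum response factor binds a sequence called the CArG box, and TEAD factors bind the MCAT motif, CATTCC or its reverse complement GGAATG. Both strands were searched from 250 bases before to 50 bases from each start in RefSeq's GRCm38.p6 promoters, which had an entry for 7 of the 10 genes. Tagln, Myh11 and Actg2 were not among these. Acta2 (chr19:34255324-34255623, minus strand) and Lmod1 (chr1:135324563-135324862, plus strand) held near matches to the CArG box. Smtn (chr11:3539243-3539542, minus strand) is shown for its narrow spread between libraries and Cnn1 (chr9:22099003-22099302, plus strand) for its wide one. Capitals mark MCAT matches and CArG boxes with at most 1 departure.
Acta2: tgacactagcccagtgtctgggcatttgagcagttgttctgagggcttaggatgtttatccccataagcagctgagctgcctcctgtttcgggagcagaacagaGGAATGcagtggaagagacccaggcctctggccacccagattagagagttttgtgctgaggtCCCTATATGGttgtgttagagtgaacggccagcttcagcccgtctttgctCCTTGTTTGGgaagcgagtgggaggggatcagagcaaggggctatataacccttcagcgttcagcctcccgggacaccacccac
Lmod1: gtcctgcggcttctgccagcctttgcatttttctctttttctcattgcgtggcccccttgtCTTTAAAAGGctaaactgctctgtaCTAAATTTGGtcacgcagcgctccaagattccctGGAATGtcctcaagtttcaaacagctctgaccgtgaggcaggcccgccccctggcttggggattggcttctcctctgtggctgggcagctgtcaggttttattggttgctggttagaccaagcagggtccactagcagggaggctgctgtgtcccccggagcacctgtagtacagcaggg
Smtn: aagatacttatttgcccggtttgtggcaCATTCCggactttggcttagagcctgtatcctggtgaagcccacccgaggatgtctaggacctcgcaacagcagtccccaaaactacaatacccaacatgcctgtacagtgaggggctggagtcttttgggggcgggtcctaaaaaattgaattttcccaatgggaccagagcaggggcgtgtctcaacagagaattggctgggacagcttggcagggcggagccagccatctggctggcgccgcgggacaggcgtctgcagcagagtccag
Cnn1: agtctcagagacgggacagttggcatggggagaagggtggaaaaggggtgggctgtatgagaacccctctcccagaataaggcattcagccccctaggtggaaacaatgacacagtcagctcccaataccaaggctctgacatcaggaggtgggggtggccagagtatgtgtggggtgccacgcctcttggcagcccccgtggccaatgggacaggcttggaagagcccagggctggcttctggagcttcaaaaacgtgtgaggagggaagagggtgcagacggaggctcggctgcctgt

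The 2 near matches of Acta2 began 84 and 34 bases before the start, as CCCTATATGG and CCTTGTTTGG, and its MCAT match began 146 bases before it. Those of Lmod1 began 189 and 164 bases before the start, as CTTTAAAAGG and CTAAATTTGG, with an MCAT match 130 bases before it. Smtn held only an MCAT match, 222 bases before its start, and Cnn1 held no match. A CArG box with no departure was in 0 of the 7 member promoters and in 1.63% of all 32851 promoters. With at most 1 departure it was in 2 of 7 and in 21.1% of all, and MCAT was in 4 of 7 (Acta2, Mylk, Smtn and Lmod1) and in 14.7% of all. No CArG and MCAT matches overlapped in the member promoters. These matches describe letters in a short window near the start, and no factor binding was measured in these embryos.

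Acta2 (ENSMUSG00000035783, chromosome 19), which encodes the smooth muscle alpha-actin of vessel walls, had the highest level of the 10 genes, in CPM and per length. Its level was 153, 81.5 and 92.2 CPM in cKO replicates 1 to 3, against 98.2, 53.4, 99.1 and 111 CPM in WT replicates 1 to 4. Replicate 1 stood above the other cKO embryos and replicate 2 below the other WT embryos. Of the remaining 5 embryos, both cKO ones lay below all 3 WT ones. The means were 109 ± 38.5 CPM in cKO (SD, n = 3) and 90.5 ± 25.5 CPM in WT (SD, n = 4). The log2 fold change of cKO over WT was 0.27 (SE 0.307, 95% interval −0.46 to 1.00). It did not pass edgeR's quasi-likelihood test (Benjamini-Hochberg adjusted p = 1) or the exact two-sided permutation test over 35 divisions of the libraries (p = 0.571). Leaving out cKO replicate 1 turned the log2 fold change to −0.05, and leaving out WT replicate 2 gave 0.08.

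Actg2 (ENSMUSG00000059430, chromosome 6), the smooth muscle gamma-actin of gut and bladder, had 19.2, 12.8 and 17.1 CPM in cKO, against 16, 8.65, 14.8 and 16.5 CPM in WT. As for Acta2, cKO replicate 1 was highest and WT replicate 2 lowest, and the groups overlapped. The means of 16.4 ± 3.25 CPM in cKO (SD, n = 3) and 14.0 ± 3.65 CPM in WT (SD, n = 4) gave a fitted difference of 0.22 on the log2 scale (SE 0.234, 95% interval −0.31 to 0.76). This was smaller than the spread between embryos (exact permutation p = 0.514). Leaving out cKO replicate 1 gave 0.10, and leaving out WT replicate 2 gave 0.05.

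**Figure D1:**
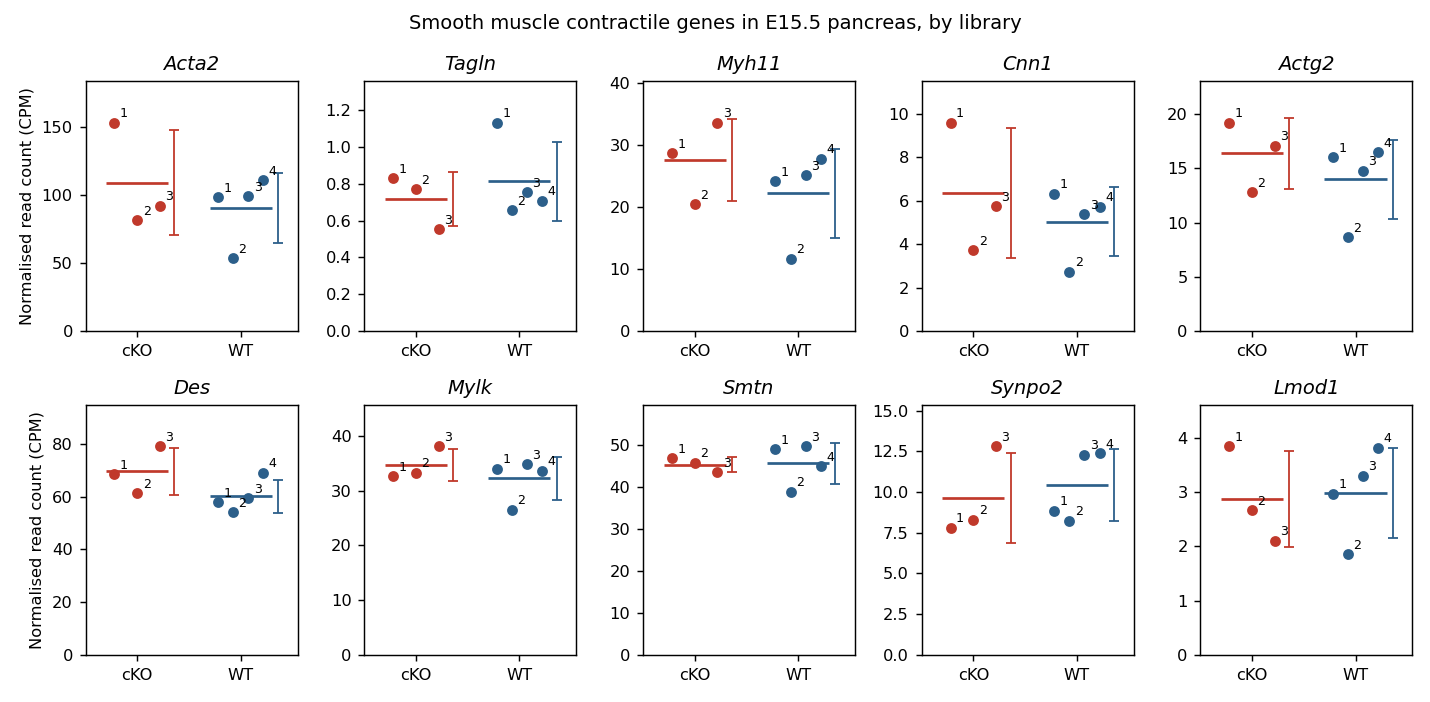
Normalised read counts in CPM (y axis, each panel with its own scale from 0) of the 10 genes in cKO (red) and WT (blue) embryos, with 1 point per library numbered by replicate, a bar at the mean and a whisker of 1 SD to either side. The groups overlap in all 10 panels, and WT replicate 2 is the lowest WT point in each.

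The plot of CPM by library shows the same embryo at the bottom of the WT group in every panel, with the heights of the cKO points changing order from gene to gene.

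Myh11 (ENSMUSG00000018830, chromosome 16) encodes smooth muscle myosin heavy chain, the motor protein that most narrowly marks differentiated smooth muscle. It had 28.7, 20.5 and 33.6 CPM in cKO, against 24.2, 11.7, 25.1 and 27.8 CPM in WT. Among WT embryos replicate 2 alone was low, and the other 3 lay among the cKO values. Means were 27.6 ± 6.62 CPM in cKO (SD, n = 3) and 22.2 ± 7.16 CPM in WT (SD, n = 4), and the log2 fold change was 0.31 (SE 0.297, 95% interval −0.38 to 1.005; exact permutation p = 0.514). It was 0.10 without WT replicate 2.

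Mylk (ENSMUSG00000022836, chromosome 16) encodes myosin light chain kinase, and it is also made in non-muscle cells. Its 32.7, 33.3 and 38.1 CPM in cKO stood against 34.0, 26.5, 34.8 and 33.7 CPM in WT. Of the 7 values, 5 were nearly equal, cKO replicate 3 was higher and WT replicate 2 lower. The log2 fold change was 0.11 (SE 0.116, 95% interval −0.16 to 0.37), with means of 34.7 ± 2.95 CPM in cKO (n = 3) and 32.3 ± 3.84 CPM in WT (n = 4; exact permutation p = 0.571). Leaving out cKO replicate 3 gave 0.03, and leaving out WT replicate 2 gave 0.02.

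Of the genes for proteins that bind or regulate the actin filament, calponin varied most between embryos and smoothelin least. Cnn1 (ENSMUSG00000001349, chromosome 9), calponin 1, which restrains the sliding of actin over myosin, had 9.58, 3.73 and 5.75 CPM in cKO, against 6.32, 2.74, 5.38 and 5.72 CPM in WT. Within each group the highest embryo was more than double the lowest, and the groups overlapped widely. The log2 fold change of 0.33 was the largest of the 10 but had the largest error (SE 0.366, 95% interval −0.50 to 1.16). The means were 6.35 ± 2.97 CPM in cKO (SD, n = 3) and 5.04 ± 1.58 CPM in WT (SD, n = 4; exact permutation p = 0.571). Leaving out cKO replicate 1 turned the log2 fold change to −0.08, and leaving out WT replicate 2 gave 0.13.

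Smtn (ENSMUSG00000020439, chromosome 11), smoothelin, is a protein of actin stress fibres whose forms are used to mark contractile smooth muscle. It had 46.8, 45.7 and 43.4 CPM in cKO, against 48.9, 38.8, 49.6 and 44.9 CPM in WT, so the cKO values lay inside the WT range. Its log2 fold change was −0.01 (SE 0.101) and had the narrowest interval of the 10, −0.24 to 0.22, or 0.849- to 1.17-fold. The means were 45.3 ± 1.69 CPM in cKO (SD, n = 3) and 45.5 ± 4.95 CPM in WT (SD, n = 4).

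Lmod1 (ENSMUSG00000048096, chromosome 1), leiomodin 1, which starts new actin filaments in smooth muscle, was low. It had 3.84, 2.66 and 2.10 CPM in cKO, against 2.97, 1.85, 3.30 and 3.82 CPM in WT. The highest cKO and the highest WT embryo were nearly level, and the lowest was again WT replicate 2. The log2 fold change was −0.06 (SE 0.311, 95% interval −0.76 to 0.65), from means of 2.87 ± 0.889 CPM in cKO (n = 3) and 2.98 ± 0.833 CPM in WT (n = 4; exact permutation p = 0.886).

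Tagln (ENSMUSG00000032085, chromosome 9), transgelin or SM22-alpha, is an abundant actin-binding protein of early smooth muscle, yet it was listed with 14, 13 and 10 counts in cKO and 21, 11, 13 and 10 counts in WT. These are 0.828, 0.770 and 0.553 CPM in cKO, against 1.13, 0.656, 0.753 and 0.707 CPM in WT. Counting error alone spans much of this range, since the exact Poisson 95% interval was 4.8 to 18.4 for 10 counts and 13 to 32.1 for 21 counts. Of its annotated exonic bases, 67.857% are also exonic in genes on the opposite strand, 62.425% in the antisense gene Gm48529 and 5.433% in Pcsk7. The libraries keep no strand, so reads of these genes cannot be told apart by strand, and no source used here says how reads in such overlaps were counted. Gm48529 itself was listed with 8, 5 and 13 counts in cKO and 14, 3, 6 and 5 counts in WT. The Tagln value is therefore uncertain as a level, and its log2 fold change of −0.19 (SE 0.349, 95% interval −0.98 to 0.60; exact permutation p = 0.600) covers the retained reads only.

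The other genes share less with their neighbours. Opposite-strand genes cover 16.301% of the exonic bases of Smtn, 6.854% of Mylk and 5.86% of Des, and 0% for the remaining 6. Because actins and myosins are alike in sequence, the transcripts were also searched for runs of 50 bases present in another gene. Such runs made up 0.326% of those of Acta2, 0.34% of Myh11 and 0% of Actg2 and Cnn1, so nearly all of their 50-base runs are their own.

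Des (ENSMUSG00000026208, chromosome 1) encodes desmin, the intermediate filament protein of smooth, skeletal and cardiac muscle. It had 68.5, 61.3 and 79.0 CPM in cKO, against 57.9, 54.0, 59.3 and 69.0 CPM in WT. The cKO values sat above most WT values, but WT replicate 4 exceeded 2 of the 3 cKO embryos. Its means, 69.6 ± 8.89 CPM in cKO (SD, n = 3) and 60.1 ± 6.35 CPM in WT (SD, n = 4), differed by 0.21 on the log2 scale in the fit (SE 0.114, 95% interval −0.04 to 0.47). Its unadjusted edgeR p of 0.0939 was the smallest of the 10, its adjusted p was 1 (Benjamini-Hochberg) and its exact permutation p was 0.171. Without cKO replicate 3, which stands apart in skeletal muscle genes, the log2 fold change was 0.11.

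Synpo2 (ENSMUSG00000050315, chromosome 3), synaptopodin 2 or myopodin, bundles actin and is found at muscle Z-discs and in smooth muscle. It had 7.80, 8.29 and 12.8 CPM in cKO, against 8.86, 8.23, 12.3 and 12.4 CPM in WT. Its values fell into a low set and a high set that each held embryos of both genotypes. The log2 fold change was −0.12 (SE 0.229, 95% interval −0.64 to 0.40), with means of 9.62 ± 2.73 CPM in cKO (n = 3) and 10.5 ± 2.22 CPM in WT (n = 4; exact permutation p = 0.657). It was −0.38 without cKO replicate 3.

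As a set, 6 of the 10 genes had a fitted log2 fold change above 0, where 46.0% of all tested features did. The 6 were Acta2, Myh11, Cnn1, Actg2, Des and Mylk, and the 4 below 0 were Tagln, Smtn, Synpo2 and Lmod1. The median was 0.16, beside −0.01 over all tested features. It was −0.00317 without cKO replicate 1 and 0.0373 without WT replicate 2, the embryos at either end of the summed level. With edgeR 0 of the 10 passed the adjusted threshold, as did 0.00591% of all features. At an unadjusted p under 0.05, edgeR listed 0 of the 10 and 1.38% of all features. The groups did not overlap for 0 of the 10 and for 2.72% of all features, and DESeq2 called 0 of the 10 and 0.0769% of all features. With these backgrounds 0 calls among 10 genes is near what any 10 features would give. The smallest exact p the design allows is 0.0286.

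**Figure D2:**
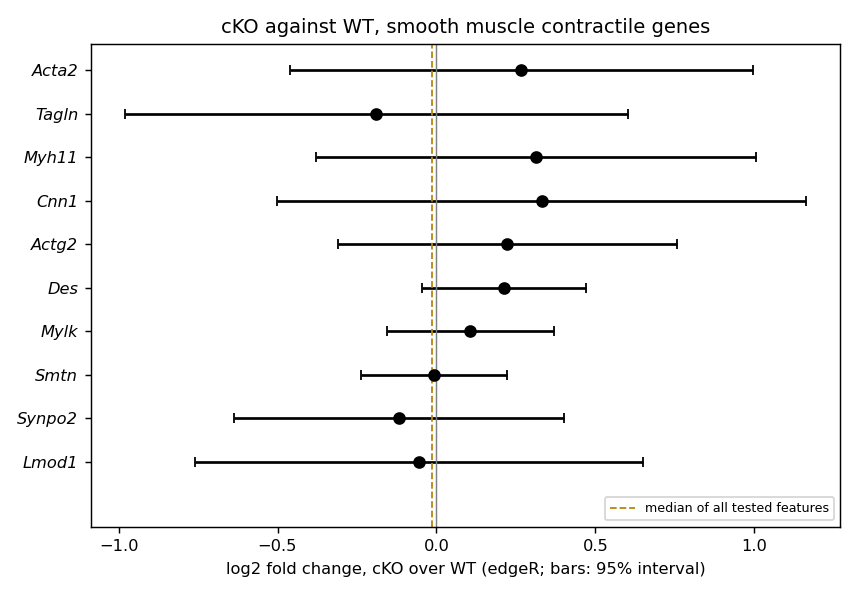
Fitted log2 fold change of cKO over WT (x axis, edgeR) for the 10 genes, with 95% intervals as bars and the median of all tested features as a dashed line. Every interval crosses 0, and those of Smtn, Mylk and Des are the narrowest.

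The plot of fold changes separates genes measured closely from genes measured loosely. For Smtn, Mylk and Des the bounds lay between 0.849- and 1.39-fold, so larger differences lie outside their intervals. For Cnn1 the bounds were 0.707- and 2.24-fold, and for Acta2 0.726- and 1.99-fold, so a doubling is inside the first and just outside the second. A p that misses the threshold in these genes does not show equal levels.

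Levels of different genes were compared per length, as CPM per kilobase of exonic length. Acta2 came first, with 49.6 ± 17.5 in cKO (SD, n = 3) and 41.2 ± 11.6 in WT (SD, n = 4), and Des second, with 18.5 ± 2.37 in cKO and 16 ± 1.69 in WT. Neither overlapped the next gene in any of the 7 libraries. Smtn (10.3 ± 0.387 in cKO and 10.4 ± 1.13 in WT) and Actg2 (10.5 ± 2.09 in cKO and 9.0 ± 2.34 in WT) came next and could not be ordered, since Smtn exceeded Actg2 in 4 of 7 libraries. Below these, Myh11 (3.63 ± 0.871 in cKO and 2.93 ± 0.942 in WT), Mylk (3.08 ± 0.262 in cKO and 2.86 ± 0.341 in WT) and Cnn1 (2.32 ± 1.09 in cKO and 1.84 ± 0.578 in WT) overlapped in turn. The lowest were Synpo2 (0.735 ± 0.209 in cKO and 0.798 ± 0.169 in WT), Lmod1 (0.727 ± 0.225 in cKO and 0.756 ± 0.211 in WT) and Tagln (0.360 ± 0.0729 in cKO and 0.409 ± 0.110 in WT). Synpo2 and Lmod1 overlapped, and Tagln was below Lmod1 in all 7 libraries although their ranges met. The last place of Tagln is uncertain, because most of its exonic bases are shared with opposite-strand genes and its full length was used. With the longest annotated transcript as the length, Mylk moved ahead of Myh11 and the other places stayed.

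**Figure D3:**
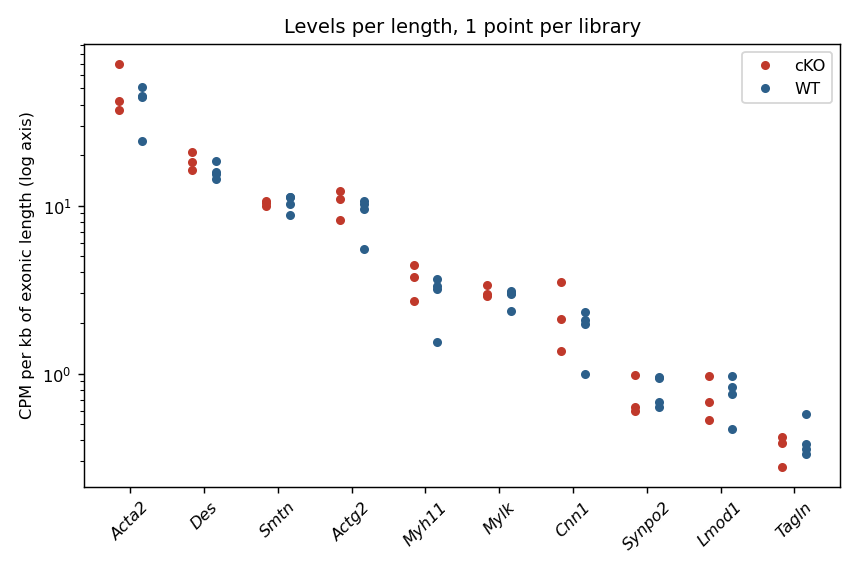
Level per length in CPM per kilobase of exonic length (y axis, log scale) of the 10 genes in the order of their mean, with 1 point per library, cKO in red and WT in blue. Acta2 and Des stand apart from the genes that follow them, and Tagln, whose level is uncertain, is at the bottom.

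The plot of levels per length shows a fall of about 2 orders of magnitude across the family, of which the last step rests on Tagln. Means over the 7 libraries ran from 44.8 for Acta2 to 0.743 for Lmod1, and to 0.388 for Tagln, which is uncertain as a level. The vascular-type actin exceeded the visceral-type actin in every embryo. The ratio of Acta2 to Actg2 per length was 5.66, 4.52 and 3.82 in cKO, against 4.34, 4.38, 4.74 and 4.77 in WT. It was nearly constant in WT, including replicate 2, where both actins were low, and it differed more among the cKO embryos. The ratio of Myh11 to Acta2 per length was 0.0542, 0.0726 and 0.105 in cKO, against 0.0712, 0.0636, 0.0733 and 0.0723 in WT. In cKO the 2 ratios ran in opposite order, with replicate 1 richest in Acta2 and replicate 3 richest in Myh11. Acta2 is above the line in the first ratio and below it in the second, so the 2 orders are not independent.

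Most genes of the vascular and the visceral list were detected, which does not show that muscle of either type was present. Of 16 genes for mural cells, which are the pericytes and muscle cells of vessels, 15 were tested and 0 passed, with 5 above 0 in the fit and a median difference of −0.06 on the log2 scale. Pdgfrb, the receptor through which these cells are recruited, had 123 ± 17.2 CPM in cKO (SD, n = 3) and 142 ± 7.54 CPM in WT (SD, n = 4). Vtn, vitronectin, had 213 ± 25.6 CPM in cKO and 217 ± 44.0 CPM in WT. Its highest values were in WT replicate 4 (283 CPM) and cKO replicate 1 (238 CPM), the libraries highest in liver genes. The part of liver in the Vtn level, and so in the sum of this list, was not tested. Rgs5, a regulator of G protein signalling in pericytes, had 57.8 ± 19.5 CPM in cKO and 73.3 ± 32.6 CPM in WT, and Rgs4 had 21.2 ± 17.8 CPM in cKO and 26.8 ± 17.5 CPM in WT. The list's summed level was 948 to 987.4 CPM in cKO and 946.1 to 1076 CPM in WT. This sum is carried by abundant genes that were steady between embryos, whereas single genes varied as much as the contractile ones, with an SD of log2 CPM of 0.99 for Rgs4 and 0.53 for Rgs5. Notch3, a receptor that matures arterial muscle, had 101 CPM in cKO and 109 CPM in WT, and Kcnj8, a potassium channel subunit of pericytes, was the only 1 of the 15 whose groups did not overlap (log2 fold change 0.13), beside 2.72% of all features.

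Of 15 genes for visceral muscle and the gut wall, 12 were tested and 0 passed, with 6 higher in the cKO fit and a median of 0.03. The muscarinic receptors Chrm2 and Chrm3, through which acetylcholine contracts gut muscle, had 8.24 and 8.90 CPM in cKO, against 6.77 and 8.42 CPM in WT. Tacr2, a tachykinin receptor of gut muscle, had 15 counts over all 7 libraries. Pcp4 and Foxf2, also left untested, had 40 and 53 counts. Kit, the marker of the pacemaker cells of the gut and of other cells, had 74.3 ± 14.9 CPM in cKO and 79.6 ± 15.7 CPM in WT. Kit was highest in WT replicate 2 (102 CPM), where Actg2 was lowest, whereas 5 of the 12 tested genes of the list were lowest there. Of the mesenchymal factors, Hand2 had 77.1 ± 28.7 CPM in cKO and 80.4 ± 20.2 CPM in WT. Hand1 had 41.4, 3.32 and 5.47 CPM in cKO, against 35, 1.91, 32.7 and 12.4 CPM in WT, and so was high in some embryos of both genotypes and low in others.

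Genes of gut lining were near the lower limit of detection, apart from Vil1. Cdx1 and Cdx2, the intestinal master regulators, had 28 and 35 counts over all 7 libraries, Fabp2 had 8, and the stomach genes Gkn1 and Muc5ac had 3 and 2. Of the 6 genes of this list found in the table, only Vil1, villin, was tested, with 23.4 ± 5.68 CPM in cKO (n = 3) and 23.0 ± 6.88 CPM in WT (n = 4).

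The spread between libraries differed widely among the contractile genes. The SD of log2 CPM over the 7 libraries was 0.56 for Cnn1, 0.49 for Myh11, 0.46 for Acta2, 0.39 for Lmod1 and 0.38 for Actg2. Of all tested features, 89.5% had a smaller SD than Cnn1, 86.1% than Myh11, 84.2% than Acta2, 79.3% than Lmod1 and 78.1% than Actg2. These 5 are the smooth muscle actins, the myosin heavy chain, calponin and leiomodin. Synpo2 (0.32) and Tagln (0.28) lay between. Des (0.19), Mylk (0.16) and Smtn (0.12) were as even as ordinary features, with 46.9%, 38.2% and 22.9% of features below them. The median SD was 0.347 for the 10 genes and 0.198 for all tested features, a description without a test. Some other lists were also above the median of all features, with 0.284 for elastic fibre genes, 0.276 for visceral muscle and gut wall, 0.29 for mesothelium, 1.37 for skeletal and cardiac muscle, 1.41 for neurons and 1.91 for liver. The median of the SD pooled within the groups was 0.363 for the 10 genes and 0.202 for all tested features.

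The highest library exceeded the lowest 3.49-fold for Cnn1, 2.87-fold for Acta2, 2.86-fold for Myh11, 2.22-fold for Actg2 and 2.08-fold for Lmod1. For Tagln it was 2.05-fold, for Synpo2 1.64-fold, for Des 1.46-fold, for Mylk 1.44-fold and for Smtn 1.28-fold, where the median feature had 1.48-fold. Part of the spread came with 1 embryo. Without WT replicate 2 the SD was 0.31 for Acta2, 0.24 for Myh11, 0.43 for Cnn1 and 0.20 for Actg2, and the median SD of the 10 genes was 0.268.

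WT replicate 2 was the lowest of the 7 libraries for 8 of the 10 genes, all but Tagln and Synpo2, and the lowest WT library for all 10. Over all tested features it was the lowest of the 7 for 18.3% and the lowest WT library for 30.0%. The median deviation of the 10 genes from their own mean over the libraries was 0.20, −0.14 and 0.16 on the log2 scale in cKO replicates 1 to 3, against 0.06, −0.46, 0.07 and 0.15 in WT replicates 1 to 4. All 10 genes were below their mean in WT replicate 2. The highest library was cKO replicate 1 for Acta2, Cnn1, Actg2 and Lmod1, and cKO replicate 3 for Myh11, Des, Mylk and Synpo2. Tagln was highest in WT replicate 1 and Smtn in WT replicate 3. Over all tested features, cKO replicate 1 was the highest library for 23.7% and the lowest for 25.8%. The highest was cKO replicate 3 for 10.8% of them.

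**Figure D4:**
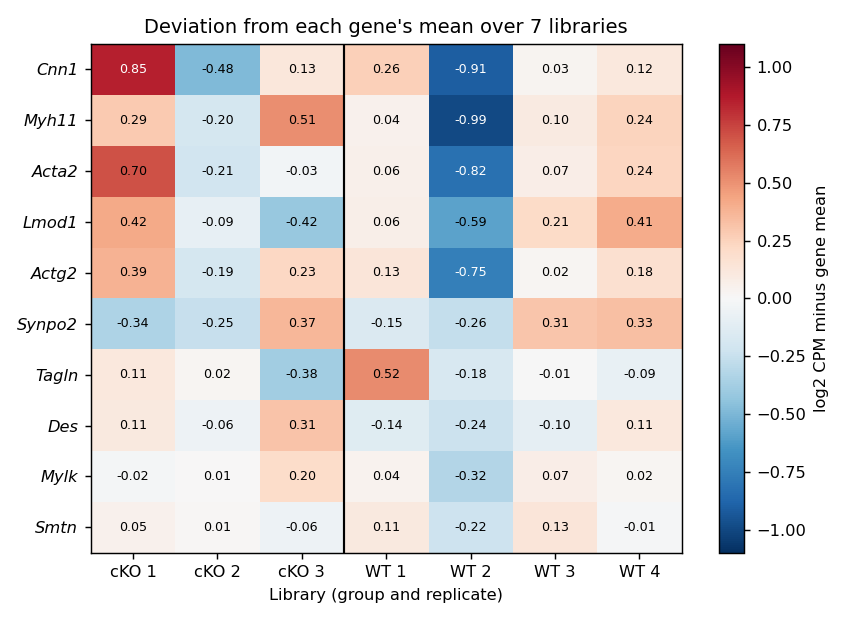
Deviation of log2 CPM from each gene's mean over the 7 libraries (colour and printed value) for the 10 genes, ordered by spread from Cnn1 at the top to Smtn at the bottom, with cKO libraries to the left of the line and WT libraries to the right. The column of WT replicate 2 is below 0 in all 10 rows, with −0.99 for Myh11 and −0.91 for Cnn1, and cKO replicate 1 reaches 0.85 for Cnn1.

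In the map of deviations, 4 genes followed the mean of the others most closely, though not in every embryo. In cKO replicate 3, Myh11 deviated by 0.515, Cnn1 by 0.126 and Acta2 by −0.0329. Pearson's r of each gene's log2 CPM with the mean profile of the other 9 was 0.974 for Actg2, 0.932 for Myh11, 0.894 for Acta2 and 0.871 for Cnn1. It was 0.781 for Mylk, 0.731 for Smtn, 0.689 for Lmod1, 0.53 for Des, 0.288 for Synpo2 and 0.141 for Tagln. These values describe 7 points that share library and depth, and WT replicate 2 is the lowest point for most of the genes.

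Outside the 10 genes and the lists, the 8 named genes with profiles most like theirs over the 7 libraries were Sertad3 (r = 0.986), Mtmr11 (0.981), Asic1 (0.977), Angptl7 (0.972), Timp4 (0.972), Prss12 (0.965), Trbj2-7 (0.965) and Cd300a (0.962). All 8 were lowest in WT replicate 2, as is the profile they were picked to match, so this is no separate result. Asic1, an acid-sensing ion channel, had 9.12 CPM in WT replicate 2 and 14.2 to 19.1 CPM in the other 6 libraries. Angptl7, a secreted angiopoietin-like protein, had 1.31 CPM there and 3.49 to 6.32 CPM in the others. Timp4 and Trbj2-7 were below 1 CPM on average in both groups.

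Partner genes of the contractile apparatus gave 0 calls as well, and they varied less: the median SD of log2 CPM was 0.108 for thin filament partners, 0.192 for myosin partners and 0.187 for adhesion partners. Of 12 thin filament partners, 10 were tested, with 7 above 0 in the fit and a median log2 difference of 0.08. Tpm2, a muscle tropomyosin, had 42.3 ± 11.4 CPM in cKO (n = 3) and 34.3 ± 6.16 CPM in WT (n = 4), and Tpm3 had 305 ± 68.5 CPM in cKO and 231 ± 106 CPM in WT. The non-muscle actins Actb (1420 ± 307 CPM in cKO and 1490 ± 73.2 CPM in WT) and Actg1 (1170 ± 107 CPM in cKO and 1180 ± 28.4 CPM in WT) far exceeded Acta2. Of 13 genes for myosin subunits and their control, all tested, 5 were higher, with a median of −0.02. In this list Ppp1r14a, the smooth muscle inhibitor of myosin phosphatase known as CPI-17, had 7.51, 6.63 and 6.13 CPM in cKO, against 5.4, 5.07, 5.21 and 5.44 CPM in WT. Every cKO embryo lay above every WT embryo, with a log2 fold change of 0.36 (SE 0.155). It was the only 1 of the 13 whose groups did not overlap, beside 2.72% of all features. Its unadjusted edgeR p was under 0.05, also as the only 1 of the 13, beside 1.38% of all features. Its Benjamini-Hochberg adjusted p was 1. Prkg1, the kinase that relaxes smooth muscle in response to cyclic GMP, had 5.05 ± 1.72 CPM in cKO and 6.08 ± 0.828 CPM in WT. The non-muscle myosin Myh9 had 389 ± 42.1 CPM in cKO and 431 ± 42.3 CPM in WT, and the phosphatase subunit Ppp1cb 296 ± 17.2 CPM in cKO and 293 ± 21.6 CPM in WT.

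Of 19 adhesion and cytoskeleton partners, all tested, 10 were higher in the cKO fit, with a median of 0.02. Pdlim3, a Z-disc and dense-body protein, had 7.15 ± 1.65 CPM in cKO (n = 3) and 5.04 ± 0.621 CPM in WT (n = 4), a log2 fold change of 0.51 (SE 0.205). Its unadjusted edgeR p was under 0.05, as the only 1 of the 19, beside 1.38% of all features, and its adjusted p was 1. Ldb3, a Z-disc protein of striated muscle, had 4.73, 3.26 and 9.78 CPM in cKO, against 3.73, 1.79, 3.13 and 4.73 CPM in WT, with cKO replicate 3 well above the rest. Filamin A (Flna) had 616 ± 123 CPM in cKO and 650 ± 62.8 CPM in WT, and Itgb1, the shared beta subunit of integrins, 568 ± 15.8 CPM in cKO and 583 ± 29.1 CPM in WT.

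Of the 10 transcription factors that act in smooth muscle, all tested, 3 were higher, with a median of −0.05. Srf, the factor that binds the CArG box, had 83.6, 94.3 and 93.9 CPM in cKO, against 89.2, 93.8, 86.3 and 90.3 CPM in WT, so it was not low in WT replicate 2. Myocd, myocardin, the smooth muscle and cardiac coactivator of Srf, had 1.18, 1.54 and 2.54 CPM in cKO, against 2.49, 1.01, 2.08 and 2.12 CPM in WT. It was lowest in WT replicate 2, as most of the contractile genes were, but also low in cKO replicate 1, where Acta2 and Cnn1 were highest. With 221 Myocd counts over all 7 libraries, counting error is part of these differences. Tead1, which binds MCAT, had 110 ± 29.9 CPM in cKO (n = 3) and 119 ± 18.6 CPM in WT (n = 4), and Gata6 95.6 ± 4.37 CPM in cKO and 96.7 ± 5.27 CPM in WT. Of 10 genes that respond to or belong to TGF-beta signalling, which induces contractile genes, 2 were higher, with a median of −0.07. Ltbp1, which stores the ligand in matrix, had 53.1 ± 12.2 CPM in cKO and 59.7 ± 16.7 CPM in WT. Tgfb1 had 31.8 ± 8.60 CPM in cKO and 28.9 ± 5.99 CPM in WT, Smad3 130 ± 24.8 CPM in cKO and 142 ± 11.9 CPM in WT, and Tgfbr2 110 ± 5.97 CPM in cKO and 115 ± 3.73 CPM in WT.

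Elastic fibre genes of the arterial wall did not all vary across embryos in the same way. Of 8 genes, all tested, 4 were higher in the cKO fit, the median log2 fold change was 0.01, 6 were lowest in WT replicate 2 and 4 were highest in cKO replicate 1. Eln, elastin, the elastic protein that arterial muscle lays down, had 1560, 605 and 576 CPM in cKO, against 1000, 357, 1040 and 1200 CPM in WT. Its highest embryo was cKO replicate 1 and its lowest WT replicate 2, as for Acta2 and Cnn1. Ltbp4 had 412 ± 33.3 CPM in cKO (n = 3) and 415 ± 63.1 CPM in WT (n = 4), and Mfap5 had 8.84 ± 4.43 CPM in cKO and 8.15 ± 1.89 CPM in WT. Fbn1, fibrillin 1, had 189, 250 and 323 CPM in cKO, against 204, 295, 360 and 239 CPM in WT. It was thus lowest in cKO replicate 1 and not low in WT replicate 2, unlike Eln, which makes up much of the list's sum.

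Genes of skeletal and cardiac muscle stood apart in 1 library. Of 21 genes, 16 were tested, 0 passed and all 16 were higher in the cKO fit, with a median log2 fold change of 1.73 beside −0.01 for all features, of which 46.0% were higher. At an unadjusted p under 0.05 edgeR listed 3 of the 16, beside 1.38% of all features. Their summed level was 45.28, 34.82 and 453.2 CPM in cKO replicates 1 to 3, against 34.21, 34.16, 55.59 and 33.85 CPM in WT, so cKO replicate 3 alone was high. Acta1, skeletal actin, had 71.7 CPM and Myh3, embryonic skeletal myosin, 89.8 CPM in that embryo, against 1.60 and 1.84 CPM for Acta1 and 1.00 and 2.01 CPM for Myh3 in the other cKO embryos. Myh8, perinatal skeletal myosin, had 19.6, 10.7 and 71.6 CPM in cKO, against 12.3, 9.12, 15.3 and 12.4 CPM in WT. Des is also expressed in skeletal muscle, and Des, Myh11, Mylk and Synpo2 were highest in cKO replicate 3. Without that library the log2 fold changes were 0.11 for Des, 0.15 for Myh11, 0.03 for Mylk and −0.38 for Synpo2.

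**Figure D5:**
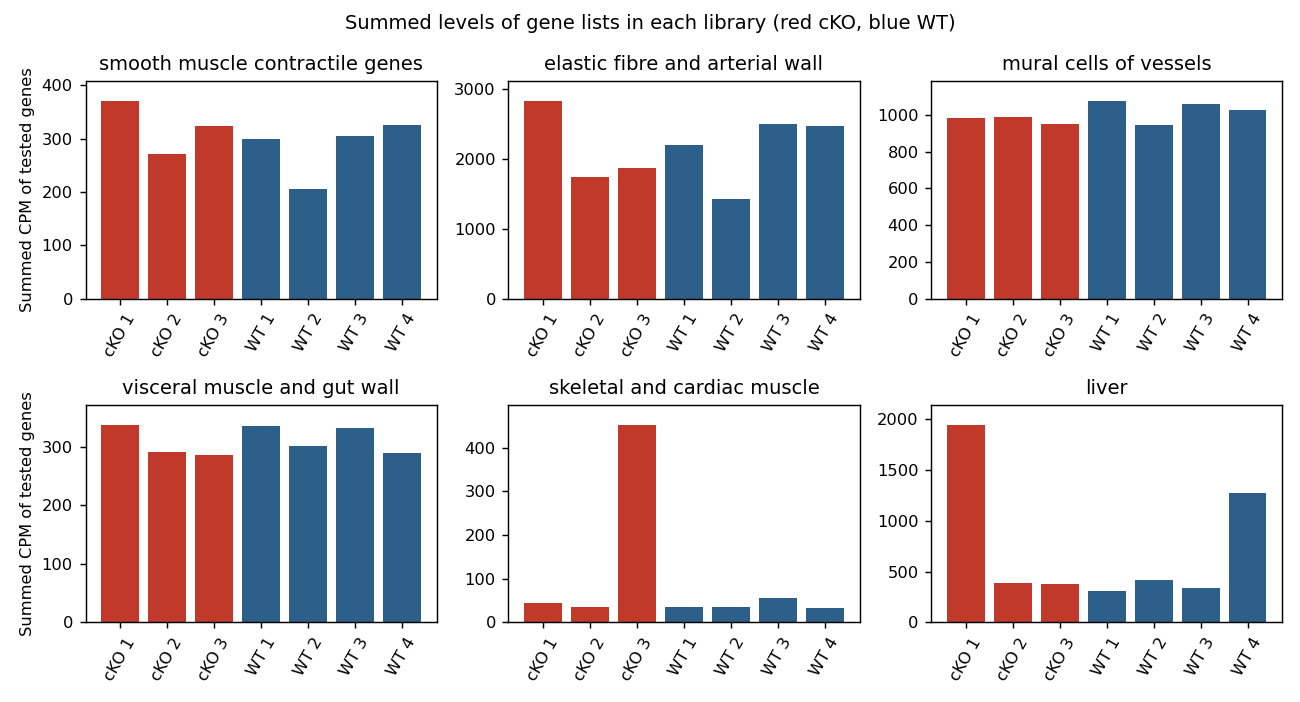
Summed CPM of the tested genes of 6 lists (y axes from 0, each panel with its own scale) in the 7 libraries, cKO in red and WT in blue. Contractile and elastic fibre sums are lowest in WT replicate 2 and highest in cKO replicate 1, skeletal and cardiac muscle is high in cKO replicate 3, and liver is high in cKO replicate 1 and WT replicate 4.

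The plot of list sums sets the contractile genes beside other tissues that a dissected pancreas can hold. The 10 liver genes summed to 1950, 393.1 and 379.1 CPM in cKO, against 305.5, 420.1, 339.1 and 1273 CPM in WT. All 10 were higher in the cKO fit (median 0.94), and 9 were highest in cKO replicate 1, the library with the highest Acta2. Alb, serum albumin, had 245 ± 385 CPM in cKO (n = 3) and 99.4 ± 170 CPM in WT (n = 4), and Afp 274 ± 338 CPM in cKO and 159 ± 197 CPM in WT. Genes of enteric and autonomic neurons summed to 1456, 350.5 and 351.6 CPM in cKO, against 1136, 318.4, 941 and 618.5 CPM in WT, again highest in cKO replicate 1 and lowest in WT replicate 2. The fit put 3 of these 10 above 0 (median −0.07). Dbh, which makes noradrenaline, had 52.3 ± 85.2 CPM in cKO and 74.0 ± 71.6 CPM in WT.

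Sums of the remaining lists were more even. Endothelial genes, 10 in all, summed to 733.4 to 836 CPM in cKO and 722.1 to 872.4 CPM in WT, with 3 higher in the cKO fit (median −0.02) and 6 lowest in WT replicate 2. Cdh5, vascular endothelial cadherin, had 151 ± 21.9 CPM in cKO (n = 3) and 167 ± 10.7 CPM in WT (n = 4). Of the 10 mesenchymal genes, 6 were above 0 in the fit (median 0.01), with Col1a1, a fibrillar collagen, at 3430 ± 185 CPM in cKO and 3520 ± 387 CPM in WT. Of the 7 mesothelial genes, 5 were above 0 (median 0.17), and Upk3b, a mesothelial marker, had 77.3 ± 23.6 CPM in cKO and 67.7 ± 15.9 CPM in WT. Of all genes in these lists, 0 passed edgeR's adjusted threshold. The part of liver, neuron, skeletal muscle or elastic tissue in the levels of the contractile genes was not tested.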

How the data were processed

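The authors deposited raw counts of reads per feature for all 7 libraries in 1 table of whole numbers. The submitters' processing notes list HISAT2, StringTie, featureCounts and mm39 and give no settings or versions. The kit, NEBNext Ultra per the labels' protocols, does not mark strand. Each column was assigned by the genotype and replicate number in its header, and 0 per-sample columns were left unused. Totals were 14883918 to 17767373 counts. The libraries differed pairwise beyond sampling noise, with 12.0 to 55.6 chi-square units per degree of freedom, so each counted as 1 replicate.

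The members and lists were chosen with earlier results of these data known. The main test was edgeR 4.0.16 (R 4.3.3), with filterByExpr, TMM (0.952 to 1.04), estimateDisp, robust glmQLFit and glmQLFTest on the group alone. It covered 16910 features, with Benjamini-Hochberg adjustment over all of them and a threshold of 0.05. The biological coefficient of variation was 0.218 in common, with 3.97 median prior degrees of freedom. TMM-scaled library sizes were used for CPM, and 2 was the prior count for log2 CPM. SEs were taken from the coefficient and its F statistic. For single genes, log2 CPM was permuted over the 35 divisions of the libraries (exact, two-sided, smallest p 0.0286). Poisson intervals cover counting error alone, because PCR duplicates are not separate molecules. The procedure was checked on simulated data.

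Exonic lengths, chromosomes and overlaps came from GENCODE M21, whose build, GRCm38, is not that of the authors, and it served only these uses. Promoters are RefSeq's. Of 189 list entries 187 were matched and 171 tested. Named genes were the 10 members, of each list the 2 with the highest mean and the 2 with the largest fold change among those of at least 1 CPM, and the 8 most similar profiles without predicted-gene names, and not all are printed. The results of 2 of these genes are not reported here. Other genes with values were chosen after these were seen. Alternatives were DESeq2 1.42.0, limma-voom (limma 3.58.1), other scalings and filters, estimation that is not robust, a replicate block, and libraries left out.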

Additional observations from a re-analysis of the deposited data

Results flagged for a closer look

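Mylk, which encodes myosin light chain kinase, had 26.5 CPM in WT replicate 2, and 33.7 to 34.8 CPM in the other WT embryos. The gap of that embryo to its nearest neighbour was 0.868 of the range of the WT group, above the critical value of 0.829 for 4 samples. It was 1 of 11 values examined this way, the 10 genes and their sum, and chance flags about 1 in 20 groups. The cKO group, with 3 embryos, was not examined. WT replicate 2 was also the lowest WT library for the other 9 genes. Their ratios stayed under the critical value, and for Tagln and Des the ratio was that of a high embryo, WT replicate 1 and WT replicate 4.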

How the results depend on the processing

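Under 17 other settings, 0 of the 10 genes and 0 genes of the lists passed the threshold, and the lowest adjusted p of a member was 0.683, for Acta2. Of 169 member values, 154 had the sign first reported and 15 the other. Myh11, Des and Mylk never changed sign. The number of features past the threshold, 1 in edgeR, was 0 with DESeq2 size factors, library totals, a filter at 1 CPM (which also removed Tagln) or estimation that is not robust, 4 with no filter, 13 in DESeq2, 13 with the replicate block, and 0 to 3 when each library was left out. Leaving out each library in turn, the members' median log2 fold change ranged from −0.00317 to 0.212. Single values ranged from −0.0519 to 0.43 for Acta2, −0.0821 to 0.593 for Cnn1, −0.376 to 0.0197 for Synpo2, −0.0772 to 0.0361 for Smtn, −0.316 to 0.127 for Lmod1, −0.301 to 0.0205 for Tagln, 0.0504 to 0.367 for Actg2, 0.102 to 0.483 for Myh11, 0.112 to 0.292 for Des and 0.0243 to 0.154 for Mylk. Without WT replicate 4 and cKO replicate 1, the libraries highest in liver genes, Cnn1 was −0.0229 and Synpo2 0.107. Without WT replicate 2 and cKO replicate 1, a choice made after seeing the data, the median was −0.0932, 3 of 10 genes were higher and 3 features passed, with Acta2 at −0.244, Cnn1 at −0.293 and Actg2 at −0.0778. Deviations of same-numbered libraries correlated at 0.284, 0.419 and 0.0597 for replicates 1 to 3. For cKO replicates 1 and 2 the best match was the WT library of the same number. For cKO replicate 3 it was WT replicate 2 (0.296). The labels do not say whether the replicate numbers pair embryos, and the main test did not pair them. With the replicate block Lmod1 was 0.0811. The cause of these shifts was not tested. Depth limits Tagln (10 to 21 counts per library) and Lmod1 (31 to 65) most.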
